A study of Mus musculus with 14 samples.

Results

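The genes described here carry, in the deposited tables, only the name of a RIKEN cDNA clone whose number starts with a prefix between 4920 and 4933 and ends in Rik. Of 279 such genes in the authors' joint table, the 214 with at least 5 FPKM in whole testis lysate were taken, out of 7907 genes with a symbol that reached the same level and 21905 genes with a symbol in all. FPKM is the number of sequenced fragments scaled by transcript length and by the mapped fragments of the library. The members were thus chosen by their lysate value, so every ratio to lysate below describes them and tests nothing. The prefixes were unevenly filled: 103 members were 4930 clones, 54 were 4933 clones, 24 were 4921 clones, 16 were 4931 clones, 12 were 4932 clones and 5 were 4922 clones. Just inside the floor lay 4933439C10Rik with 5.05 FPKM in lysate, 4932438H23Rik with 5.15 FPKM and 4930402F06Rik with 5.20 FPKM. Just outside it lay 4933402E13Rik with 4.85 FPKM, 4933417G07Rik with 4.82 FPKM and 4930542N07Rik with 4.799 FPKM.

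RIKEN clone names mark full-length cDNAs sequenced in bulk from mouse tissue libraries, and clones of these prefixes came from adult testis. Many such genes are transcribed late in the male germ line, in meiotic cells and in round spermatids, the haploid cells that follow meiosis. Round spermatids hold the chromatoid body, a cytoplasmic granule beside the nucleus that contains messenger RNA, piRNA and RNA-binding proteins, among them the helicase MVH (encoded by Ddx4) and the Piwi protein MIWI (encoded by Piwil1).

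All libraries came from adult C57BL/6 mice at least 6 weeks old, and the labels name no mutation except in hetMIWI. The RNA fractions were a first and a second pellet of the chromatoid body preparation (pellet1 and pellet2, 1 library each), the supernatant (1 library), an immunoprecipitate with MVH antibody (MVH IP, 3 libraries), sorted round spermatids of hetMIWI mice (1 library), other sorted round spermatids (2 libraries, 1 of them from RNA above 500 bp) and whole testis lysate (1 library). The MVH IP was made after pellet2 in the protocol, although its sample labels speak of lysate. The labels do not spell out hetMIWI beyond that name. Each condition has 1 deposited value per gene, also where several libraries were made, so no replicate spread could be computed, and the depth of the libraries is unknown. A difference is therefore called here when it reached 2-fold on values raised by 1 FPKM, without a test. The authors' own q-values are given where their deposited table has them. Lysate, supernatant, pellet1 and pellet2 had 1 library each, so these q-values cannot measure the spread between replicates of those conditions. Values of the immunoprecipitates with ACR antibody (3 libraries) and with control IgG (1 library) were not analysed here.

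In RefSeq, 213 of the 214 members were found. The label "unnamed" holds for 105, which still carry the clone name, and goes against 108, which have since received a gene symbol. RefSeq lists 168 as protein coding, 35 as lncRNA and 10 as transcribed pseudogenes, and 4933403O03Rik had no match. Among the renamed members are Cabs1 (4931407G18Rik), a calcium-binding protein of spermatids, Henmt1 (4921515J06Rik), the methyltransferase of piRNA 3′ ends, Meiob (4930528F23Rik), a single-stranded DNA binding protein of meiotic recombination, Meikin (4930404A10Rik), a kinetochore protein of the first meiotic division, and Eqtn (4930579C15Rik), a protein of the acrosomal membrane. GENCODE exon structures were found for 209 members. The longest transcript of 37 of these has a single exon, and the median length of the longest transcripts was 1998 bases. On the X chromosome lay 10 members, 4.67% of the 214, against 2.23% of all genes at the floor. The locus of 43 members overlapped another listed feature, whose reads cannot be told apart from theirs where the counting ignored strand, and 14 members had a near-identical copy among other genes, so their values are uncertain.

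Some members are related to each other in sequence, among them 3 of the 8 with the largest MVH IP to lysate ratio, 4930449I24Rik, 4933421I07Rik and 4930474N05Rik. A search of the members' GENCODE transcripts against each other found 6 related pairs with at least 200 aligned bases. The transcripts of 4930449I24Rik and 4933421I07Rik were 84.5% identical over 589 bases, and those of 4932414J04Rik and 4932415M13Rik, both lncRNAs, 94.0% identical over 1973 bases. The remaining pairs were 4930474N05Rik with 4930596D02Rik (74.6% over 681 bases), Spata31d1d (4932411G14Rik) with Spata31d1c (4932441B19Rik) (69.7% over 1681 bases), 4930430A15Rik with 4931423N10Rik (67.5% over 550 bases) and Cldn34b4 (4930428D18Rik) with Cldn34d (4930468A15Rik) (67.1% over 513 bases). The promoters of the first 2 pairs are shown because each pair lies on different chromosomes and still shares its upstream sequence. They come from RefSeq, build GRCm38.p6, from 250 bases before to 50 bases after the start of the gene, and capitals mark the longest run of bases that both promoters of a pair have in common.

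4930449I24Rik, chr5:146502149-146502448, plus strand: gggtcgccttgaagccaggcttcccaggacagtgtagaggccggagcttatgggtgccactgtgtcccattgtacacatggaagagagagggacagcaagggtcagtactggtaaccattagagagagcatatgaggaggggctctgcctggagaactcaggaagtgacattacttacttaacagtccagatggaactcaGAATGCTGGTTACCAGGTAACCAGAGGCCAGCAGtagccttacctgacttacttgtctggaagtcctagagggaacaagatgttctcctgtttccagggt
4933421I07Rik, chr7:42448053-42448352, minus strand: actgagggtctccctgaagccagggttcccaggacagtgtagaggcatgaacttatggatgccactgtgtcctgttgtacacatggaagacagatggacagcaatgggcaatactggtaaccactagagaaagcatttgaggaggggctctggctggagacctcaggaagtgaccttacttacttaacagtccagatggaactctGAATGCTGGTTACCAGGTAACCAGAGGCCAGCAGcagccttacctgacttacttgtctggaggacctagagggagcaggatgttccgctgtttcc
4932414J04Rik, chr11:21511131-21511430, minus strand: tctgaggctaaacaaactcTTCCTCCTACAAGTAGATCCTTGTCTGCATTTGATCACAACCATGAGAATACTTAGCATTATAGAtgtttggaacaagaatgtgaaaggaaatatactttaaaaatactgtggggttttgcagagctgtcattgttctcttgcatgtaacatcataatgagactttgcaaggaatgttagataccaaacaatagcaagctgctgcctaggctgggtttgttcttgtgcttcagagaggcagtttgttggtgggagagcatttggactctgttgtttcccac
4932415M13Rik, chr17:53716259-53716558, plus strand: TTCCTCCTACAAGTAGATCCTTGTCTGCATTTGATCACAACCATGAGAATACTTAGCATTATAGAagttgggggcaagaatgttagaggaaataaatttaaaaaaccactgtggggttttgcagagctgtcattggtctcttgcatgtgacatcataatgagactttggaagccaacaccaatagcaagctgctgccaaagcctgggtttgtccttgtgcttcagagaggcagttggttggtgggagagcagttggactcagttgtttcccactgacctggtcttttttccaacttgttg

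The longest shared run was 34 bases in the first pair and 65 bases in the second. The promoters were also aligned end to end with gaps allowed, and only positions without a gap were counted. The first pair had 267 identical bases in 295 such positions and the second 251 in 268. For comparison, the promoters of 4930449I24Rik and 4933402N22Rik, whose transcripts did not match each other, had 178 identical bases in 224 such positions. Their longest shared run was 9 bases. Leaving out gapped positions makes these promoters look more alike than they are over the whole 300 bases. RefSeq promoters were found for 171 members, among them all 8 members with the largest MVH IP to lysate ratio. Searched on both strands, TGACGTCA, the full cyclic AMP response element, stood in 4 of the members' 189 promoter windows (2.12%) and in 1.79% of all 32851 windows. None of the windows of those 8 members held it. The TATA box letters TATAAA stood in 10.6% of the members' windows and in 13.6% of all windows, and among the 8 in those of 4930474N05Rik and 4933402N22Rik.

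In the joint table, levels were highest in the MVH IP for most members. The median member had 30.2 FPKM in lysate, 29.2 FPKM in supernatant, 47.6 FPKM in pellet1, 40.6 FPKM in pellet2 and 82.4 FPKM in the MVH IP. The MVH IP gave the highest of the 5 values for 164 members (76.6%), against 67.0% of all genes at the floor. Supernatant was highest for 24 members, lysate for 18, pellet2 for 6 and pellet1 for 2.

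**Figure D1:**
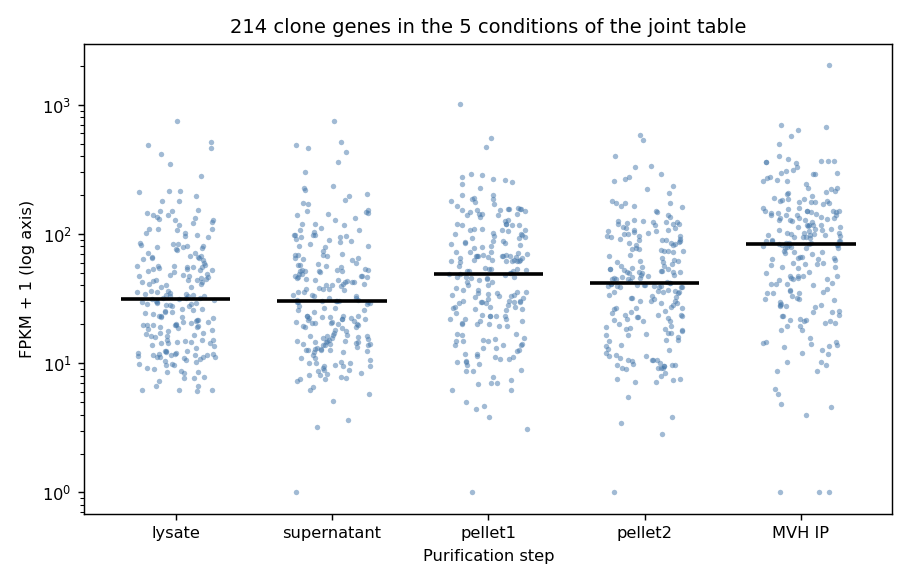
Levels of the 214 clone genes in the 5 conditions of the joint table. Each point is 1 gene, the vertical axis is FPKM + 1 on a log scale, and the black bars are medians; the bar is highest in the MVH IP, where the median was 82.4 FPKM, and lysate and supernatant lie at the same level.

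Against lysate, 121 members were at least 2-fold higher in the MVH IP, where the share of all genes at the floor was 38.9%. At least 2-fold lower in the MVH IP were 13 members, where the share of all genes was 7.51%. The members' shares were 56.5% higher and 6.07% lower. Their median log2 ratio was 1.14, and that of all genes was 0.68, so the median of all genes itself was shifted toward the MVH IP. Relative to that median, 67 members (31.3%) were at least 2-fold higher, where the share of all genes was 18.2%, and 31 (14.5%) at least 2-fold lower, where it was 18.6%. Clone genes of the 1700 prefix lay close to the members: of 210 at the same floor, 56.2% were at least 2-fold higher and 3.81% were lower, and their median was 1.15. Of 304 other Rik clone genes 47.7% were higher, with a median of 0.93.

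**Figure D2:**
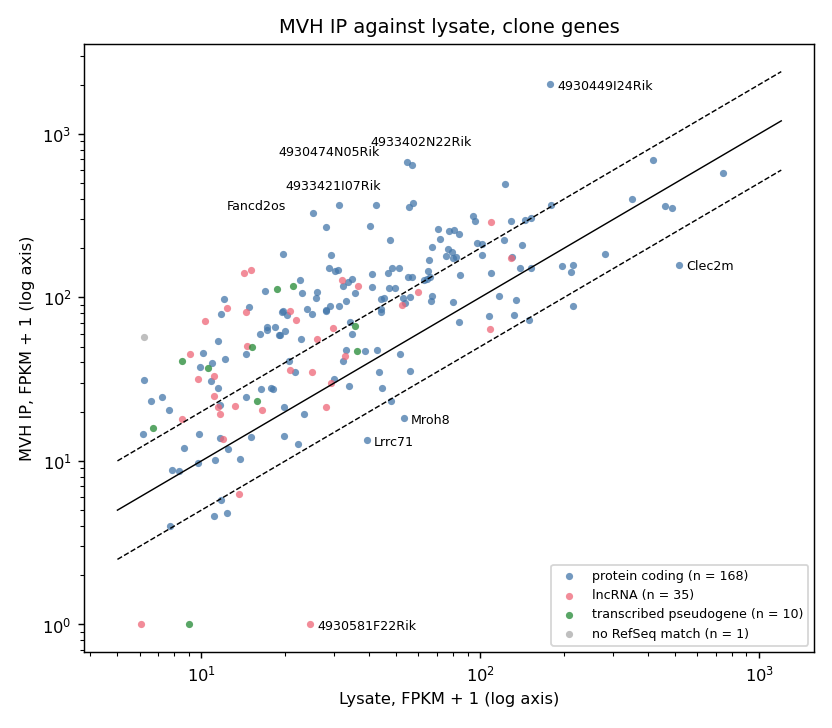
MVH IP against lysate for the 214 clone genes, both axes in FPKM + 1 on a log scale, colored by RefSeq gene type. The solid line marks equal values and the broken lines 2-fold differences; 121 points lie on or above the upper line and 13 on or below the lower one, 3 of them at 0 FPKM in the MVH IP.

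Sorted by gene type, the share of members at least 2-fold higher in the MVH IP than in lysate lay above that of other genes for protein-coding members and close to it for lncRNAs. Of the 168 protein-coding members, 57.1% were higher and 5.36% lower, and their median log2 ratio was 1.14. Of the 7278 other protein-coding genes at the floor 38.7% were higher and 6.43% lower, and the median was 0.68. Of the 35 lncRNA members, 51.4% were higher and 8.57% lower, beside 51.5% higher and 11.1% lower among the other 99 lncRNAs, and the medians were 1.08 and 1.05. Of the 10 transcribed pseudogenes, 6 were higher and 1 was lower, and of 86 others 43.0% were higher and 10.5% lower. No test was made of these differences. Members that kept the clone name had a median of 1.24 and renamed members one of 1.02.

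Transcript structure and chromosome gave further descriptive splits of the MVH IP to lysate ratio. Of the 20 members with a longest transcript of up to 1000 bases, 16 were at least 2-fold higher in the MVH IP and none was 2-fold lower, with a median of 1.56. Of the 189 longer members, 103 were higher and 13 lower, and the median was 1.13. Among the other genes at the floor, 42.0% of 774 short ones and 37.9% of 6846 longer ones were higher, and 19.5% and 6.15% were lower. Members with a single exon in their longest transcript (37) had a median of 0.78 and those with several (172) one of 1.199. The other genes of these kinds had 0.63 and 0.67. The 10 members on the X chromosome had a median of 1.44, beside 1.22 for the 166 other genes of the X.

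The ratio also moved with the lysate level, which is its denominator. The members' median log2 ratio of MVH IP to lysate was 1.52 at 5 to 10 FPKM in lysate (25 genes), 1.58 at 10 to 20 FPKM (53 genes), 1.57 at 20 to 40 FPKM (49 genes), 1.16 at 40 to 80 FPKM (47 genes) and 0.41 at 80 FPKM or more (40 genes). It was thus nearly level up to 40 FPKM and lower above. For all genes at the floor the medians were 0.94, 0.83, 0.77, 0.48 and 0.13 in the same ranges, lower in each range than in the one before.

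The largest increases were those of a small group of genes, most of which still carry a clone name. 4930449I24Rik had 177 FPKM in lysate, 119 FPKM in supernatant, 1005 FPKM in pellet1, 582 FPKM in pellet2 and 2013 FPKM in the MVH IP, the highest value of any member in any condition. Its relative by sequence, 4933421I07Rik, had 30.2, 21.5, 174, 123 and 368 FPKM in the same order of conditions. In mm9, the build of the authors' table, the locus of 4930449I24Rik is chr5:147313975-147316759 and that of 4933421I07Rik is chr7:49700832-49703450. Both were higher in the pellets than in lysate and highest in the MVH IP, and both were lowest in supernatant. In the authors' deposited table, the q-values of MVH IP against lysate were 3.78e-05 for 4930449I24Rik and 4.48e-05 for 4933421I07Rik.

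4930449I24Rik has 5 near-identical gene copies, among them Gm3402 and Gm3409, and 4933402N22Rik has 14, among them Gm5152 and Gm5861, so the share of reads that belongs to each locus is uncertain. 4933402N22Rik had 53.5 FPKM in lysate, 47.7 FPKM in supernatant, 267 FPKM in pellet1, 233 FPKM in pellet2 and 670 FPKM in the MVH IP. 4930474N05Rik had 55.9, 45.9, 275, 179 and 640 FPKM in these conditions, and its relative 4930596D02Rik had 21.6, 16.02, 99.0, 94.5 and 127 FPKM. The profiles of these genes ran in parallel from lysate to pellet2, while the step to the MVH IP was smaller for 4930596D02Rik.

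Fancd2os (4931417G12Rik), a gene on the strand opposite to the DNA repair gene Fancd2, had the largest ratio of all members. Its locus in mm9 is chr6:113546756-113550709. It had 326 FPKM in the MVH IP and 24.2 FPKM in lysate, a log2 ratio of 3.70, and the authors' deposited table gives a q-value of 3.33e-05. The lncRNA Crnde (4933436C20Rik) had 140 FPKM in the MVH IP and 13.2 FPKM in lysate, and the lncRNA 4930417O13Rik had 147 FPKM in the MVH IP and 14.0 FPKM in lysate. The related lncRNAs 4932414J04Rik and 4932415M13Rik had 84.6 and 80.04 FPKM in the MVH IP, and 11.4 and 13.4 FPKM in lysate.

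**Figure D3:**
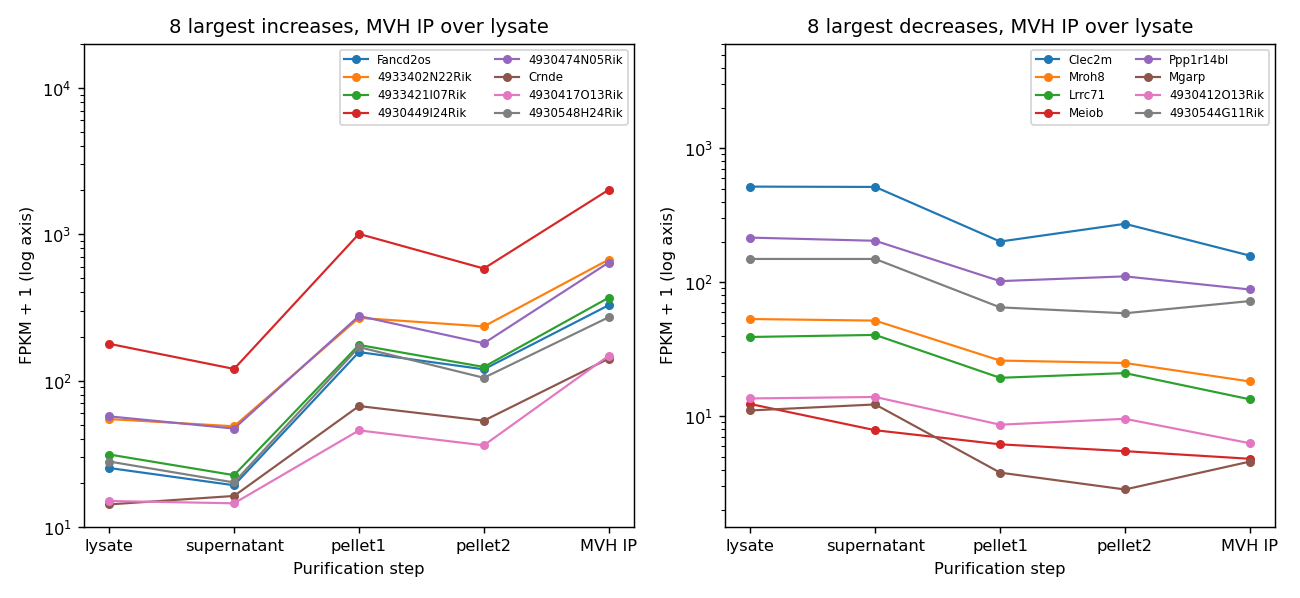
Levels through the purification for the 8 members with the largest increase (left) and the 8 with the largest decrease (right) in MVH IP over lysate, in FPKM + 1 on a log axis. Lines join the values of 1 gene; the genes on the left step up at pellet1 and again at the MVH IP, and those on the right are below lysate in both pellets and in the MVH IP.

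Of the members lower in the MVH IP, the lectin gene Clec2m had the largest decrease with a value in both. Clec2m (4922502D21Rik) had 157 FPKM in the MVH IP and 517 FPKM in lysate, where only 4933411K16Rik was more abundant. Meiob had 3.82 FPKM in the MVH IP and 11.4 FPKM in lysate, and Mgarp (4930583H14Rik), a mitochondrial protein gene, had 3.60 FPKM in the MVH IP and 10.1 FPKM in lysate. The log2 ratios were -1.71 for Clec2m, -1.36 for Meiob and -1.27 for Mgarp. Mroh8 (4922505G16Rik) and Lrrc71 (4933430H15Rik), both with loci that overlap another feature, had log2 ratios of -1.55 each, Ppp1r14bl (4933415F23Rik) one of -1.29 and 4930544G11Rik one of -1.04. All of these were also below lysate in pellet1 and pellet2. The lncRNA 4930412O13Rik had 5.30 FPKM in the MVH IP and 12.6 FPKM in lysate in the joint table, but 49.9 FPKM in the MVH IP and 5.99 FPKM in lysate in the separate gene tables, so its direction depended on the table. In the separate tables Clec2m, Ppp1r14bl and 4930544G11Rik were lower in the MVH IP by less than 2-fold, with log2 ratios of -0.65, -0.29 and -0.28, and 1 member in all was 2-fold lower. Those ratios were not centred, and the tables differ in scale. The joint lysate value was higher than the separate one by a median log2 of 1.27, and that of the MVH IP by 0.11. For all genes at the floor these medians were 1.22 for lysate and -0.07 for the MVH IP. The members' median log2 ratio of MVH IP to lysate was 2.48 in the separate tables and 1.14 in the joint one. No median or share of all genes is given for this ratio in the separate tables, so neither the 2.48 nor the 1 decrease is read as a trait of the members. The separate tables also start at 5 FPKM, so members below that level there have no ratio.

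Listed at 0 in the MVH IP were 3 members, for which no fold is given. The lncRNA 4930581F22Rik, which overlaps 2 other features, had 0 FPKM in the MVH IP, 8.64 FPKM in pellet2, 7.66 FPKM in pellet1 and 23.5 FPKM in lysate, and it was the only member that the authors' deposited table calls lower in the MVH IP than in lysate, with a q-value of 0.0305. 4930515G16Rik had 8.05 FPKM in lysate and was listed at 0 in the other 4 conditions. 4933439C10Rik had 0 FPKM in the MVH IP and 5.05 FPKM in lysate.

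Of the 10 members highest in lysate, 2 were higher in the MVH IP and the others lower. 4933411K16Rik had 572 FPKM in the MVH IP and 740 FPKM in lysate, Cabs1 had 350 FPKM in the MVH IP and 487 FPKM in lysate, and 4930571K23Rik had 360 FPKM in the MVH IP and 458 FPKM in lysate. The higher ones were 4933402J07Rik, with 695 FPKM in the MVH IP and 414 FPKM in lysate, and 4930503B20Rik, with 400 FPKM in the MVH IP and 348 FPKM in lysate, both by less than 2-fold. 4930453N24Rik, 4921507P07Rik and Ccdc181 (4930455F23Rik), with 184, 156 and 142 FPKM in the MVH IP and 280, 214 and 210 FPKM in lysate, were lower, also by less than 2-fold.

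Among members with a known role, Henmt1, Eqtn and H2al3 were at least 2-fold higher in the MVH IP, and Meikin was not. Henmt1 had 57.5 FPKM in the MVH IP and 18.1 FPKM in lysate, and Eqtn had 174 FPKM in the MVH IP and 78.9 FPKM in lysate. H2al3 (4930557A04Rik), a testis histone variant gene, had 227 FPKM in the MVH IP and 70.7 FPKM in lysate. Meikin had 13.1 FPKM in the MVH IP and 14.1 FPKM in lysate. Tex46 (4930549C01Rik), one of the genes named as testis expressed, had 97.0 FPKM in the MVH IP and 11.04 FPKM in lysate. Grouped by the start of the symbol, the members at least 2-fold higher in the MVH IP than in lysate were 6 of 8 Tex genes, 4 of 5 Spata genes, 4 of 8 Ccdc genes, 2 of 3 Mgat4 genes, 5 of 12 with symbols such as Cfap or Cep and 1 of 5 Fam genes, of which 1 more was 2-fold lower. Beside these stand 56.5% of all members and 38.9% of all genes at the floor, and no difference from them was tested. These genes were picked for their symbols after values were known.

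The authors' deposited table called 33 members higher and 1 lower in the MVH IP than in lysate at a q-value under 0.05, where it called 7.63% and 0.152% of all genes at the floor. The authors' deposited table gives a test for 212 of the 214 members in this pair, and a failed test for 4930442L01Rik and 4933407P14Rik. Of the called members in the authors' deposited table, 4933409K07Rik, a transcribed pseudogene that the table places on unplaced sequence, had the smallest q-value (2.11e-07) with 111 FPKM in the MVH IP and 17.6 FPKM in lysate. Ccer1 (4921510H08Rik), a coiled-coil protein gene of spermatids, had 491 FPKM in the MVH IP and 122 FPKM in lysate, and the authors' deposited table gives a q-value of 0.0147. In any of the 10 pairs of conditions, the authors' deposited table called 44 members (20.6%), where it called 11.6% of all genes at the floor.

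**Figure D4:**
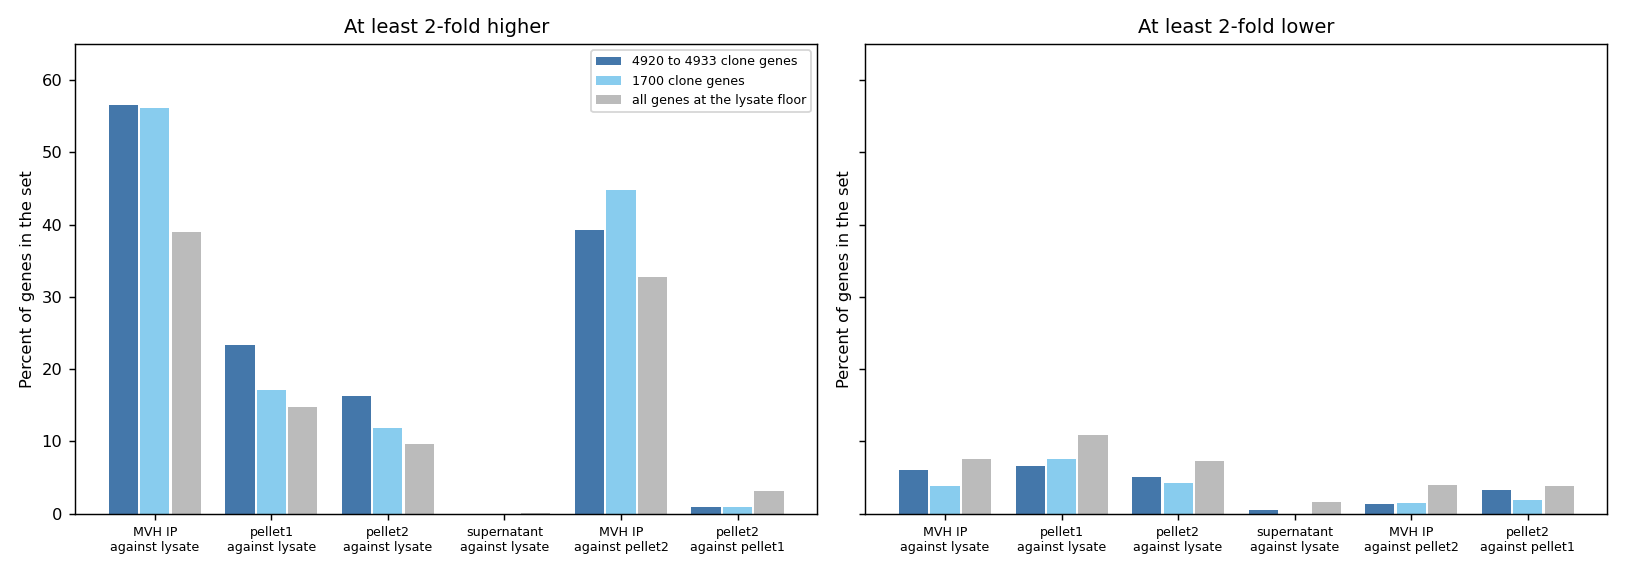
Percent of genes at least 2-fold higher (left) or lower (right) in each comparison of the joint table, for the 4920 to 4933 clone genes, the 1700 clone genes and all genes at the lysate floor. The share of higher genes is above that of all genes in the MVH IP and in both pellets against lysate, and near 0 in supernatant.

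The pellets showed the same direction with smaller ratios. In pellet1, 50 members were at least 2-fold higher than in lysate, where the share of all genes was 14.7%, and 14 were at least 2-fold lower, where it was 10.9%. Their median log2 ratio was 0.39, and that of all genes was -0.03. In pellet2, 35 members were at least 2-fold higher than in lysate, where the share of all genes was 9.66%, and 11 were lower, where it was 7.23%, with a median of 0.27. The 1700 clone genes had medians of 0.25 in pellet1 and 0.14 in pellet2 against lysate.

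The gene with the largest ratio in both pellets was 4931408C20Rik, a protein-coding gene at chr1:26738646-26744305 in mm9. It had 18.6 FPKM in lysate, 14.8 FPKM in supernatant, 142 FPKM in pellet1, 109 FPKM in pellet2 and 184 FPKM in the MVH IP. Its log2 ratio to lysate was 2.86 in pellet1 and 2.49 in pellet2, and the authors' deposited table gives q-values of 1.68e-05 and 0.000357. 4930548H24Rik followed the same course, with 26.9 FPKM in lysate, 19.1 FPKM in supernatant, 168 FPKM in pellet1, 103 FPKM in pellet2 and 270 FPKM in the MVH IP.

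At a q-value under 0.05, the authors' deposited table called 12 members higher in pellet1 than in lysate and none lower, where it called 2.57% and 0.126% of all genes. It called 7 members higher in pellet2 than in lysate and none lower, where the authors' deposited table called 1.13% and 0.0379% of all genes. All 7 were also among those called in pellet1 and in the MVH IP: 4930444G20Rik, 4930449I24Rik, 4931408C20Rik, Fancd2os, 4933402N22Rik, 4933409K07Rik and 4933421I07Rik. These comparisons share the lysate library, so the overlap is not independent. The values of 4930444G20Rik were 41.3 FPKM in lysate, 36.3 FPKM in supernatant, 190 FPKM in pellet1, 174 FPKM in pellet2 and 365 FPKM in the MVH IP.

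Some members were low in 1 pellet only. Lypd9 (4930504O13Rik) had 42.2 FPKM in lysate, 41.4 FPKM in supernatant, 25.1 FPKM in pellet1, 7.45 FPKM in pellet2 and 33.9 FPKM in the MVH IP, the lowest pellet2 to lysate ratio of all members with a value above 0 (log2 ratio -2.35). 4930524B15Rik had 17.0 FPKM in lysate, 20.9 FPKM in supernatant, 5.17 FPKM in pellet1, 14.2 FPKM in pellet2 and 26.4 FPKM in the MVH IP. Mgarp was low in both pellets, with 2.80 FPKM in pellet1, 1.85 FPKM in pellet2 and 10.1 FPKM in lysate. Between the pellets, 2 members were at least 2-fold higher in pellet2 than in pellet1 (3.2% of all genes) and 7 were lower (3.82% of all genes), and the authors' deposited table called no member at a q-value under 0.05, where it called 0% of all genes higher and 0.0253% lower.

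Supernatant differed little from lysate. No member was at least 2-fold higher in supernatant (0.0759% of all genes) and 1 was lower, 4930515G16Rik, which is listed at 0 in supernatant (1.59% of all genes). The median log2 ratio was -0.0038, and the middle 50 percent of members lay between -0.19 and 0.15. The largest difference with a value in both was that of 4933403O03Rik, with 2.24 FPKM in supernatant and 5.22 FPKM in lysate. The strongest increases were those of 4933439C10Rik, with 7.93 FPKM in supernatant and 5.05 FPKM in lysate, and of the lncRNA 4930539J05Rik, with 182 FPKM in supernatant and 128 FPKM in lysate. The authors' deposited table called no member in this pair at a q-value under 0.05, where it called 0% of all genes higher and 0.0126% lower.

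The lysate value enters neither side of the comparison of the MVH IP with pellet2, which by the protocol was its input. At least 2-fold higher in the MVH IP than in pellet2 were 84 members, or 39.3%, where the share of all genes was 32.7%, and 3 were lower, where it was 3.93%. The median log2 ratio was 0.79 for the members, 0.95 for the 1700 clone genes and 0.69 for all genes, so the members lay closer to all genes in this step. Relative to the median of all genes, 22 members (10.3%) were at least 2-fold higher, where the share of all genes was 8.37%, and 15 (7.01%) lower, where it was 10.3%. The difference between the medians of the members and of all genes was larger in pellet1 against lysate, by 0.42 on the log2 scale, than in MVH IP against pellet2, by 0.09.

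Other genes led this step than led the MVH IP over lysate. Tex46 had 97.0 FPKM in the MVH IP and 8.11 FPKM in pellet2, a log2 ratio of 3.43. Samt1b (4921511M17Rik), which has 8 near-identical gene copies, had 76.9 FPKM in the MVH IP and 8.84 FPKM in pellet2, and the authors' deposited table gives a q-value of 0.0364. Dnaaf6 (4930521A18Rik), a gene of dynein arm assembly, had 78.1 FPKM in the MVH IP and 13.8 FPKM in pellet2, and Tex38 (4930544O15Rik) had 378 FPKM in the MVH IP and 87.6 FPKM in pellet2. H2al3 had 227 FPKM in the MVH IP and 43.6 FPKM in pellet2.

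In the authors' deposited table, 2 members were called higher in the MVH IP than in pellet2 at a q-value under 0.05, Samt1b and 4930474N05Rik (0.708% of all genes), and none lower (0.164% of all genes). Against pellet1, the authors' deposited table called no member, where it called 0.392% of all genes higher in the MVH IP and 0.341% lower. The 2-fold decreases were those of Brd8dc (4933408B17Rik), with 4.73 FPKM in the MVH IP and 10.6 FPKM in pellet2, and of 4930581F22Rik and 4933439C10Rik, listed at 0 in the MVH IP. Against supernatant, where the authors' deposited table called 9.92% of all genes higher in the MVH IP and 0.152% lower, it called 41 members higher and 1 lower. In the same table, pellet1 against supernatant had 15 members higher and none lower in the authors' calls (3.67% and 0.152% of all genes), and pellet2 against supernatant had 9 higher and none lower (1.73% and 0.0253% of all genes).

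The other 4 gene tables were each scaled on their own and start at 5 FPKM, so a member absent from one of them is low or unlisted there. Of the 214 members, 141 (65.9%) were listed in the MVH IP table, 102 (47.7%) in that of hetMIWI round spermatids, 136 (63.6%) in that of other round spermatids and 167 (78.0%) in that of lysate. The shares of all genes at the floor were 69.6%, 38.4%, 59.3% and 65.1% in these tables. Common to all of them were 64 members, and 16 were in none. Listed in round spermatids but not in lysate were 4 members, and in lysate but not in round spermatids 35. These overlaps are not given for all genes at the floor, so they are not read as a trait of the members.

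How sorted round spermatids compared with lysate depended on the scaling. Among the 132 members in both tables, 22 were at least 2-fold higher in round spermatids (22.6% of all 4081 genes in both) and 5 were lower (3.48% of all genes). The median log2 ratio of round spermatids to lysate was 0.22 for the members and 0.31 for all genes. Relative to the median of all genes, 14 members were higher (15.1% of all genes) and 12 lower (7.91% of all genes), with a median of -0.088. With the joint table's value of lysate, 2 members were higher and 68 lower, and the median was -0.999. That ratio crosses tables scaled apart, and no share of all genes is given for it. The joint lysate value was higher than the separate one by a median log2 of 1.27 for members and 1.22 for all genes. The 68 is therefore not read as a result about the members. 4933427D14Rik had 37.3 FPKM in round spermatids and 6.71 FPKM in lysate, Cep162 (4922501C03Rik), a centriole and cilium gene, had 35.2 FPKM in round spermatids and 7.19 FPKM in lysate, and Erich2 (4933404M02Rik) had 182 FPKM in round spermatids and 40.9 FPKM in lysate. The 3 lowest ratios were those of members that led the MVH IP over lysate. 4930449I24Rik had 8.78 FPKM in round spermatids and 71.9 FPKM in lysate, 4933402N22Rik had 14.1 FPKM in round spermatids and 48.9 FPKM in lysate, and 4930474N05Rik had 6.47 FPKM in round spermatids and 21.5 FPKM in lysate. In lysate, which holds all cells of the testis, fewer cells of a type and less RNA per cell cannot be told apart.

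Between the MVH IP and round spermatids the members were mostly higher in the MVH IP, as were all genes. Of 115 members in both tables, 98 were at least 2-fold higher in the MVH IP (75.3% of all 3670 genes) and 2 were lower (0.545% of all genes), with a median log2 ratio of 2.22 for the members and 1.85 for all genes. Relative to that median of all genes, 28 members (24.3%) were at least 2-fold higher (19.9% of all genes) and 14 (12.2%) lower (21.4% of all genes). 4930449I24Rik had 488 FPKM in the MVH IP and 8.78 FPKM in round spermatids, a log2 ratio of 5.65. 4933402N22Rik had 538 FPKM in the MVH IP and 14.1 FPKM in round spermatids, and 4931408C20Rik had 152 FPKM in the MVH IP and 5.17 FPKM in round spermatids. 4933421I07Rik had 282 FPKM in the MVH IP and was not listed in round spermatids. The 2 members that were lower were Lypd9, with 6.36 FPKM in the MVH IP and 24.6 FPKM in round spermatids, and 4930544G11Rik, with 44.6 FPKM in the MVH IP and 106 FPKM in round spermatids. The joint table gave Lypd9 33.9 FPKM in the MVH IP, so its direction depended on the table.

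**Figure D5:**
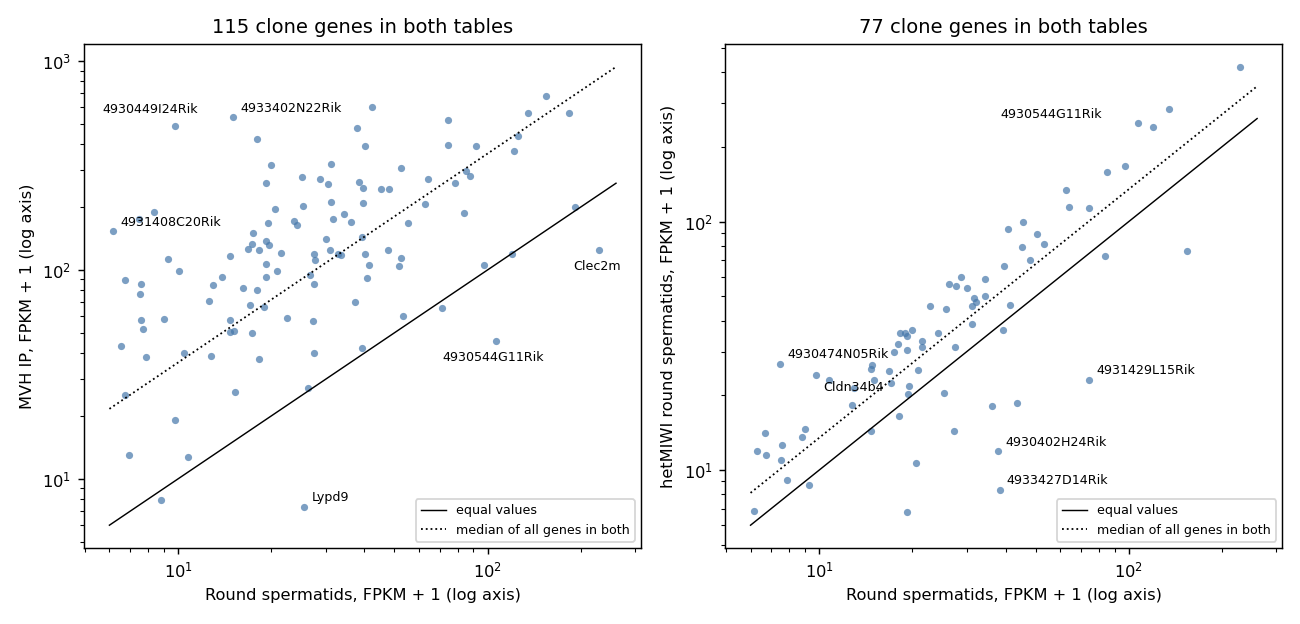
Clone genes in the separate gene tables, MVH IP against round spermatids (left, 115 genes) and hetMIWI against other round spermatids (right, 77 genes), in FPKM + 1 on log axes. The solid line marks equal values and the dotted line the median ratio of all genes in both tables; most points on the left lie above the solid line, and the 3 named genes at the lower right of the right panel lie below it.

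The hetMIWI round spermatids were 1 library, and the other round spermatids pool 2, 1 of them from RNA above 500 bp. Piwil1, which encodes MIWI, had 7.79 FPKM in hetMIWI round spermatids and 5.01 FPKM in the other round spermatids, so its level does not check the label. Among the 77 members in both tables, 11 were at least 2-fold higher in hetMIWI round spermatids (12.3% of all 2495 genes) and 6 were lower (10.6% of all genes). The median log2 ratio was 0.64 for the members and 0.43 for all genes, and relative to the median of all genes 1 member (1.30%) was at least 2-fold higher, where the share of all genes was 3.25%, and 9 (11.7%) were lower, where it was 18.3%. That 1 was 4930474N05Rik, with 25.8 FPKM in hetMIWI round spermatids and 6.47 FPKM in the other round spermatids.

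Lowest in hetMIWI round spermatids was 4933427D14Rik, with 7.34 FPKM in them and 37.3 FPKM in the other round spermatids. Its value in the other round spermatids also gave it the highest ratio of round spermatids to lysate, so these results are not independent. 4931429L15Rik had 22.1 FPKM in hetMIWI round spermatids and 73.3 FPKM in the other round spermatids, and 4930402H24Rik had 10.9 FPKM in hetMIWI round spermatids and 36.9 FPKM in the other round spermatids. Cfap61 (4930529M08Rik), a gene of the sperm flagellum, had 5.78 FPKM in hetMIWI round spermatids and 18.2 FPKM in the other round spermatids. 4930544G11Rik was higher, with 248 FPKM in hetMIWI round spermatids and 106 FPKM in the other round spermatids.

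Marker genes of other cells moved along the purification as well. The summed level of 18 Sertoli cell markers was 486 FPKM in the MVH IP, 64.4 FPKM in pellet2 and 112 FPKM in lysate, with 4 markers at 0 in the MVH IP and 1 in lysate, and 12 of the 16 with a mean of at least 1 FPKM were at least 2-fold higher in the MVH IP and 3 at least 2-fold lower. That of 12 spermatid markers was 38605 FPKM in the MVH IP and 46697 FPKM in lysate, and 2 were at least 2-fold higher in the MVH IP and 1 lower. That of 9 spermatocyte markers was 706 FPKM in the MVH IP and 913 FPKM in lysate, with 0 at least 2-fold higher and 1 lower. That of 7 spermatogonia markers was 75.4 FPKM in the MVH IP and 17.4 FPKM in lysate. Of the 6 with a mean of at least 1 FPKM, 5 were higher and 0 lower. The sum over 8 Leydig cell markers was 230 FPKM in the MVH IP and 330 FPKM in lysate, with 1 marker higher and 2 lower. That over 6 macrophage markers was 69.5 FPKM in the MVH IP and 22.3 FPKM in lysate. Of the 4 with a mean of at least 1 FPKM, 2 were higher and 1 lower, and 1 of the 6 was at 0 in the MVH IP. That of 8 nuclear retained RNAs was 1601 FPKM in the MVH IP, 10383 FPKM in pellet2, 10375 FPKM in pellet1 and 6111 FPKM in lysate. Of the 7 nuclear retained RNAs with a mean of at least 1 FPKM, 0 were higher in the MVH IP than in lysate and 6 lower. Beside these counts stand 38.9% higher and 7.51% lower among all genes at the lysate floor, which the markers did not have to pass. The part of the marker genes in the members' ratios was not tested.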

How the data were processed

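RNA was sequenced from mouse testis fractions. Per the submitters' processing notes, the authors used TopHat, Cuffdiff and the mm9 build; no version, strand setting or scaling is stated there. Per the file headers, the deposited values are FPKM, with 1 value per condition, and the deposited q-value of each pair comes from the authors' joint table. A test across single libraries had been planned, but each condition has 1 deposited value, pooled where it had several libraries, so none was made. The members, gene lists and rules were chosen with earlier results of these data known. Members matched the clone pattern and had at least 5 FPKM in lysate; for a gene listed with differing values the highest was used, which touched no member. Ratios are log2 of values raised by 1 FPKM, called at 2-fold; folds of low genes are understated. The code was tested on simulated data. Background is all genes with a symbol at the same floor.

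Names came from the 10 members highest in lysate and the 8 largest ratios each way per joint comparison, or 5 per separate-table comparison. They also came from members the authors called and those at 0, and not every member of these lists is named. Other names were picked by symbol or class. Symbols and promoters are from RefSeq (GRCm38.p6), exons from GENCODE vM21, used for names and lengths only. A near-identical copy has at least 95% identity over 50% of a transcript in BLAST. Values were computed with Python 3.11.15, pandas 2.3.3 and matplotlib 3.10.9. One small RNA column and the element, piRNA and other RNA tables were not used.

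Alternatives were a pseudocount of 0.1 FPKM, centring on all genes, a 3-fold threshold, a floor of 10 FPKM, no floor, leaving out overlapping members or those with copies, and the separate tables.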

Additional observations from a re-analysis of the deposited data

How the results depend on the processing

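Of the counts recomputed under an alternative, 69 stayed within 1.5 times the reported count and 33 did not. The other floors, the exclusions and the separate tables also change how many members are counted, so a similar count need not be a similar share. Centred on the median of all genes at the floor, 67 members were higher and 31 lower in the MVH IP than in lysate, and 22 were higher and 15 lower in the MVH IP than in pellet2. Centred on all genes listed in both separate tables, 14 were higher and 12 lower in round spermatids than in lysate, 28 higher and 14 lower in the MVH IP than in round spermatids, and 1 higher in hetMIWI than in other round spermatids. At a 3-fold threshold, 78 were higher and 4 lower in the MVH IP than in lysate, 23 higher and 1 lower in pellet1 than in lysate, 11 higher and 3 lower in pellet2 than in lysate, 25 higher in the MVH IP than in pellet2, and 0 higher and 2 lower in pellet2 than in pellet1; fewer genes pass a larger fold. With a pseudocount of 0.1 FPKM, 3 were lower in supernatant than in lysate, and 5 were higher and 11 lower in pellet2 than in pellet1. With a lysate floor of 10 FPKM, 0 were lower in supernatant than in lysate. Without a floor, 1 was higher and 2 lower in supernatant than in lysate, 8 were lower in the MVH IP than in pellet2, and 4 were higher and 16 lower in pellet2 than in pellet1. Without overlapping members, 8 were lower in the MVH IP than in lysate and 1 was lower in the MVH IP than in pellet2. The separate gene tables, where the members' median log2 ratio was 2.48 and not 1.14, left 1 member lower in the MVH IP than in lysate. No share of all genes is given for that count. With the joint table's value of lysate, 2 members were higher and 68 lower in round spermatids than in lysate. That ratio crosses tables scaled apart, and no share of all genes is given for it. With the joint table's value of the MVH IP, 1 was lower in the MVH IP than in round spermatids.

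Turned round was the members' median log2 ratio of round spermatids to lysate, 0.22 as reported. It was -0.088 when centred on the 0.31 of all genes. With the joint table's lysate, whose values were higher by a median log2 of 1.27, it was -0.999. Also turned round was 4930412O13Rik in the MVH IP against lysate, which was 2.86 in the separate tables. The cause of the latter was not tested. Leaving out members with near-identical copies, chosen after seeing the data, kept the counts of the joint-table comparisons within 1.5 times, and was not run for the separate tables. No paired analysis was possible because each condition has 1 deposited value, and for the same reason no library could be left out.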

Other observations

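The joint and the separate table of the same condition disagreed for some members by more than their common scale. For lysate, the joint value was higher than the separate one by a median of 1.27 on the log2 scale over 167 members, with the middle 50 percent between 1.16 and 1.35. For the MVH IP, the median difference over 141 members was 0.11, with the middle 50 percent between -0.22 and 0.32. Far from that median, Cep128 (4930534B04Rik), a centriole gene, had 76.6 FPKM in the MVH IP in the joint table and 682 FPKM in the separate one, and 4930519G04Rik had 105 FPKM and 601 FPKM. 4930449I24Rik, which has near-identical copies, had 2013 FPKM in the MVH IP in the joint table and 488 FPKM in the separate one. Samt1b (4921511M17Rik), which also has copies, had 76.9 FPKM and 13.8 FPKM. Members without a near-identical copy were also higher in the joint table. 4930474N05Rik had 640 FPKM there and 175 FPKM in the separate one, Lypd9 33.9 and 6.36 FPKM, and Cldn34b4 44.8 and 18.1 FPKM. The part of copies in these differences was not tested. In lysate, 4930503E14Rik was the only member with a lower value in the joint table (5.61 FPKM) than in the separate one (8.74 FPKM).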
